A study of Mus musculus with 5 samples.

Results

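The replication-dependent histone genes were examined for H3K27me3 in mouse molar mesenchyme. They were taken as the protein-coding genes of the GENCODE M21 annotation (GRCm38) whose symbols start with Hist1h, Hist2h, Hist3h or Hist4h. This rule used no measured value and gave 67 of 21938 protein-coding genes. Of these, 6 encode the linker histone H1, 18 encode H2A, 18 encode H2B, 12 encode H3 and 13 encode H4.

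Chromatin immunoprecipitation and sequencing (ChIP-seq) was used to ask where this mark lies in the molar. All 5 libraries came from the molars of wildtype C57BL/6 mice at postnatal day 3, with the epithelium taken away before the mesenchyme was processed. Of these, 2 were H3K27me3 libraries, 2 were inputs, chromatin that was not precipitated, and 1 was made with nonspecific IgG. No mutant or treated group was part of the ChIP-seq data. The labels do not say how many animals were pooled or whether the replicates were separate animals, and expression of marker genes of the tissue was not measured in these libraries. The authors deposited 3 lists of broad peaks called by MACS at a p-value cutoff of 0.005: replicate 1 against input, the same H3K27me3 library against IgG, and replicate 2 against its own input. The lists of replicate 1 share the H3K27me3 library, so only replicates 1 and 2 against input are separate measurements. With 1 list per replicate no test over animals was possible, and the shares below are given with 95% Wilson intervals that cover counting error only.

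Histone genes of this kind supply the proteins that package newly copied DNA, and dividing cells transcribe them during S phase. They lack introns as a rule, lie close together in clusters and end their messages in a short RNA hairpin, the stem-loop, instead of a poly(A) tail. H3K27me3 is placed on histone H3 by Polycomb repressive complex 2, with Ezh2 as the enzyme, and is known for marking silent developmental genes such as the Hox genes. The genes described here therefore encode, among other proteins, the substrate on which the mark is written.

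The 67 genes fell into 5 groups when genes up to 500 kb apart were joined. On chromosome 13, 23 genes from Hist1h2bl to Hist1h2bj formed the proximal Hist1 group (chr13:21715763-22043676, 327.9 kb), and 31 genes from Hist1h4h to Hist1h2aa formed the distal Hist1 group (chr13:23531050-23934851, 403.8 kb). The Hist2 group on chromosome 3 held 10 genes over 50.3 kb (chr3:96219865-96270132). Hist3h2ba and Hist3h2a on chromosome 11 lay within 7.91 kb (chr11:58948920-58956830). Hist4h4 was the only gene of the symbol rule on chromosome 6 (chr6:136801553-136804415). H2afj, a histone gene that the symbol rule leaves out, lay beside it (chr6:136808244-136810074). The gene bodies were short, with a median length of 0.539 kb against 17.4 kb for all protein-coding genes. Many neighbours were read in opposite directions from a shared start region. There were 12 such pairs of an H2A and an H2B gene, with 175 to 305 bases (median 258.5) between their 5′ ends, so members of a pair share most of their promoter window. The 67 windows of 1 kb on each side of a 5′ end made up 38 separate stretches, and members are not independent of each other.

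The hairpin that defines these messages was read from the genome. The histone stem-loop was searched as a pattern of 16 bases, with the letters GG, NN, CTTTT, N, AG, NN and CC in this order and N for any base, on the strand of the gene and within 200 bases after the stop codon. It was found in 63 of the 67 genes and in 68 of all 21938 protein-coding genes (0.31%). It was not found in this form in Hist1h2an, Hist1h3g, Hist1h4a and Hist2h2be. Hist1h2bn held 2 copies, with 29 and 120 bases between the stop codon and their starts, so it is counted under 2 of the 6 sequences below. The sequences are shown because 63 of the 68 genes with the pattern belong to this family. The 4 bases of the loop are in capitals (DNA of GRCm38, 5′ to 3′ on the gene strand). In the labels, first, second and last only tell apart the sequences found in 2 genes each. They give no order within a gene.
Stem-loop of 41 genes: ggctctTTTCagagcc
Stem-loop of 9 genes: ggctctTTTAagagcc
Stem-loop of 8 genes: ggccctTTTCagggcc
First stem-loop of 2 genes: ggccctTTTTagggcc
Second stem-loop of 2 genes: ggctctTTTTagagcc
Last stem-loop of 2 genes: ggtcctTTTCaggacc
The pattern leaves only the last base of the loop and the NN positions of the stem free, so the sequences could differ nowhere else. At the NN positions most genes had the same letters. The NN letters of both arms were complementary in all 6 sequences.

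None of the 67 histone promoters held an H3K27me3 peak in any list. With a promoter defined as 1 kb on each side of the gene 5′ end and an overlap of at least 1 base, the count was 0 of 67 in replicate 1 with either control and 0 of 67 in replicate 2. The interval reached 5.42%, and 3 genes, the limit used for a count of 0, would be 4.48%. Over all protein-coding genes, 3.87% of promoters had a peak in replicate 1 against input, 4.52% with IgG as control and 4.16% in replicate 2, and 1.04% had one in both replicates. The interval of the histone genes covers these shares, so a difference from the other genes was not detectable from 1 kb promoters. H1, H2A, H2B, H3 and H4 genes were at 0 alike in the 3 lists. The count was also 0 when every annotated transcript start was used in place of the gene 5′ end, which matters for genes such as Hist1h2be, whose annotated gene body runs over 37455 bp.

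The comparison was repeated with promoters of similar base composition, since H3K27me3 is known to favour unmethylated CpG islands. Histone promoters were rich in CpG. Their 2 kb windows held a median of 91 CpG against 61 over all genes, and 58 of 67 (86.6%) were above that median. H2A promoters had a median of 101.5 CpG, H2B promoters 97.5, H3 promoters 91.5, H4 promoters 69 and H1 promoters 60. Of all 10951 promoters above the median of 61, 5.02% held a peak in replicate 1 against input, 5.86% against IgG, 5.22% in replicate 2 and 1.68% in both replicates. The shares against input also lie inside the interval of the histone genes, and the IgG share lies just above it. That interval treats genes as independent and is too narrow. Counted by stretch, 0 of 38 held a peak in each list, with an interval of up to 9.18%, which covers the IgG share too. Shares of stretches and of genes are not in the same unit. The 39 Hox genes, with a median of 88 CpG, had a promoter peak in 30 cases in replicate 1 against input, 33 with IgG as control and 32 in replicate 2, and 24 in both replicates.

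**Figure D1:**
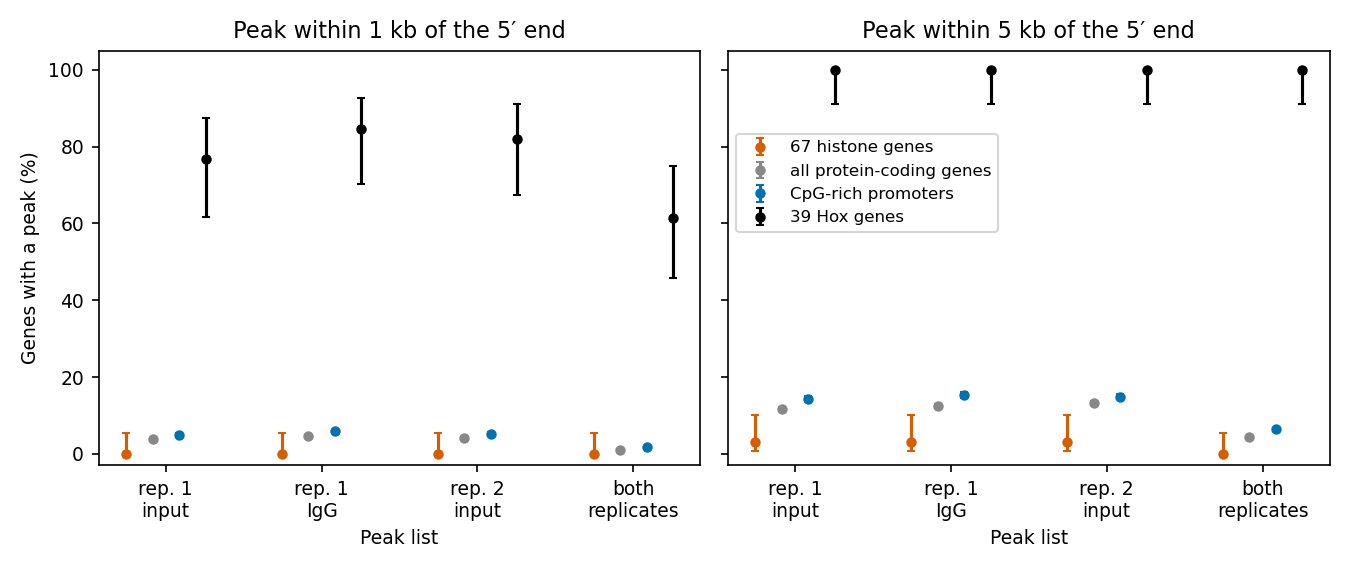
Percentage of genes with a peak within 1 kb (left) or 5 kb (right) of the 5′ end in each peak list and in both replicates, for histone genes, all protein-coding genes, CpG-rich promoters and Hox genes. Points are shares and bars are 95% Wilson intervals; histone genes are at 0% within 1 kb and at 2.99% within 5 kb in each list, while all 39 Hox genes have a peak within 5 kb.

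Within 5 kb of the 5′ end, 2 of 67 histone genes (2.99%, interval 0.822% to 10.2%) had a peak in each list. Over all genes 11.7% had one in replicate 1 with input as control, 12.5% with IgG and 13.2% in replicate 2, each above the upper end of the histone interval. Genes with CpG-rich promoters gave 14.4%, 15.3% and 14.9%. The genes were Hist1h2an and Hist1h2bp in both lists of replicate 1, and Hist1h1t and Hist1h4c in replicate 2, all named after their values had been seen. No histone gene had a peak within 5 kb in both replicates, against 4.31% of all genes, which lies inside the interval of up to 5.42%, and 6.35% of genes with CpG-rich promoters, which lies above it. These 67 windows formed 18 separate stretches, so the intervals, which treat genes as independent, are too narrow. Counted by stretch, 1 of 18 (5.56%, interval 0.988% to 25.8%) held a peak in each list, and that interval covers the shares over all genes. A stretch can hold several windows, so shares of stretches and of genes are not in the same unit. These counts therefore do not decide whether histone genes differ from all genes within 5 kb.

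Loci, meaning gene bodies extended by 5 kb at both ends, were counted next. A peak lay in 2 of 67 histone loci in replicate 1 against input and against IgG (2.99%) and in 4 of 67 in replicate 2 (5.97%, interval 2.35% to 14.4%). Over all protein-coding genes the shares were 25%, 25.9% and 35.7%, and over those with CpG-rich promoters 28.9%, 29.7% and 42.1%. No histone locus had a peak in both replicates, against 15.7% and 19.6% of these loci. The 67 loci formed 16 separate stretches, of which 1 held a peak in each list of replicate 1 (6.25%, interval 1.11% to 28.3%) and 2 did in replicate 2 (12.5%, 3.5% to 36%). These intervals reach the shares over all genes but end below those of genes with CpG-rich promoters. A count of 3 of 16 stretches would be 18.8%. A stretch can hold several loci, so shares of stretches and of genes are not in the same unit. Histone loci are shorter than most, and a longer locus has more room for a peak. The share of bases covered by peaks was therefore compared too. It averaged 0.0124% in replicate 1 and 0.0378% in replicate 2 (mean 0.0251% ± 0.0179, SD, n = 2) for histone genes, compared with 0.222% and 0.316% for all genes. The histone values rest on 1 peak counted in 2 loci in replicate 1 and on 2 peaks counted in 4 loci in replicate 2. The SD does not cover this counting error. The covered shares therefore do not decide whether histone loci differ from those of all genes. None of the peaks in the histone loci overlapped a histone gene body. These bodies are short (median 0.539 kb), and the share over all gene bodies was not computed. This absence can therefore not be read as particular to histone genes.

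The locus peaks were few and weak. Replicate 1 had 1 such peak, on chr13:21789647-21789692, which lay 2186 bp from the 5′ end of Hist1h2bp and inside the loci of Hist1h2an and Hist1h2bp, a divergent H2A and H2B pair. It was 46 bp long, the shortest length in the list. Its pileup, the mean number of overlapping tags after scaling, was 3.12, the lowest value in the list and equal to 4 tags, and its fold enrichment over input was 2.6. Called against IgG, the same position had a pileup of 3.22 and a fold enrichment of 2.63. Replicate 2 had no peak within 46175 bp of Hist1h2an or 46418 bp of Hist1h2bp.

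Replicate 2 had 2 other locus peaks. On chr13:21740785-21741043, a peak of 259 bp with a pileup of 6, the lowest value in that list, and a fold enrichment of 2.41 lay 5721 bp from the 5′ end of Hist1h4j, an H4 gene. On chr13:23693439-23693524, a peak of 86 bp with a pileup of 6.6 and a fold enrichment of 2.62 lay 2290 bp upstream of Hist1h1t and in the loci of Hist1h2bc and Hist1h4c as well. In replicate 1 against input the nearest peak was 54583 bp from Hist1h4j and 273339 bp from Hist1h1t. All 3 peaks are shown because they are all the peaks called in histone loci. They are printed 5′ to 3′ on the plus strand of GRCm38 with CpG in capitals. They held 0, 3 and 1 CpG in this order, and each consisted wholly of positions whose 49-base and 74-base words occur once in the genome.
Peak near Hist1h2bp: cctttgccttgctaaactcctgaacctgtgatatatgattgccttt
Peak near Hist1h4j: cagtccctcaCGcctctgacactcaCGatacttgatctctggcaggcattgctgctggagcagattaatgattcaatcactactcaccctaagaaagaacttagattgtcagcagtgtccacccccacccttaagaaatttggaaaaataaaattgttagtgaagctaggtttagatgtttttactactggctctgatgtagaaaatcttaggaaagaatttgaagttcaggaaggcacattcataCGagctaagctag
Peak near Hist1h1t: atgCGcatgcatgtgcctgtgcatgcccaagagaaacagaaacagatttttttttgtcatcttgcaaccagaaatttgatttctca
By the soft-masking of the genome sequence, 0% of the first peak, 44.4% of the second and 70.9% of the third were repeats.

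The start regions next to 2 of these peaks are given for comparison, since neither held a peak in any list. The stretch between the 5′ ends of Hist1h2an and Hist1h2bp (chr13:21787219-21787460, 242 bases) and the 250 bases before the 5′ end of Hist1h1t (chr13:23695564-23695813) are printed on the plus strand, which is the strand of Hist1h2bp and Hist1h1t. Capitals mark the TATA-box letters TATAAA and the CCAAT box on either strand.
Hist1h2an to Hist1h2bp: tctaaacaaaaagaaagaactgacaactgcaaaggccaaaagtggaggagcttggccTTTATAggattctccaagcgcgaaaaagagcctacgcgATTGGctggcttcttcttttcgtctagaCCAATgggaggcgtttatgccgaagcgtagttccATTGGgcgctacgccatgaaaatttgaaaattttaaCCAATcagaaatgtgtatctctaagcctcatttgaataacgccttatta
Hist1h1t promoter: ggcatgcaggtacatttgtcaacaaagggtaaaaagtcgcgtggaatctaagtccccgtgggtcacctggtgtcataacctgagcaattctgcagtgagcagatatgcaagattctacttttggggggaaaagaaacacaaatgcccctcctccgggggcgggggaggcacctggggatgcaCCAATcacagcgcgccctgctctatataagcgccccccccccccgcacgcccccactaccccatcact
The pair held 1 TATAAA and 4 CCAAT matches, and the Hist1h1t stretch held 0 and 1 of them. Only these exact letters were counted. Close variants, such as the tatataag in the Hist1h1t stretch, were not, so 0 matches does not mean that a TATA box is absent. Both consisted wholly of positions that are unique in the genome.

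Motifs were counted in the same way over the RefSeq promoter table of GRCm38.p6, which gives 250 bases before and 50 after each gene start and in which 62 of the 67 genes were matched. CCAAT, on either strand, was in 53 of 62 histone promoters (85.5%) and in 37.4% of all 32851 promoters. It was in 100% of the H1, H2A, H2B and H3 promoters and in 3 of 12 H4 promoters. TATAAA was in 35 of 62 (56.5%) against 13.6%, and in 40% to 66.7% of the promoters of each histone type. The octamer ATTTGCAT, known as the site of the factor Oct1 in H2B promoters, was in 13 of 62 (21%) against 1.74%. It was found in 7 of 18 H2A and 6 of 16 H2B promoters and in no H1, H3 or H4 promoter. H2A and H2B genes share their start regions, so these matches are partly the same letters. With 0 promoters marked, no motif could be set against the presence of H3K27me3.

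The distance from each 5′ end to the nearest peak was used to describe the members beyond fixed windows. In replicate 1 against input, histone genes lay 2.19 kb to 279.5 kb from a peak, with a median of 82.3 kb, compared with 55.4 kb for all genes and 0.603 kb for Hox genes. Against IgG the medians were 57.1 kb, 53.4 kb and 0.291 kb. In replicate 2 the histone distances ran from 2.29 kb to 131.1 kb with a median of 52.1 kb, compared with 31.4 kb and 0.698 kb. Farther from a peak than the median gene were 41 of 67 histone genes in replicate 1 against input, 37 with IgG as control and 46 in replicate 2. Neighbouring histone genes share their nearest peak, so these distances follow the 5 groups more than the single genes.

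**Figure D2:**
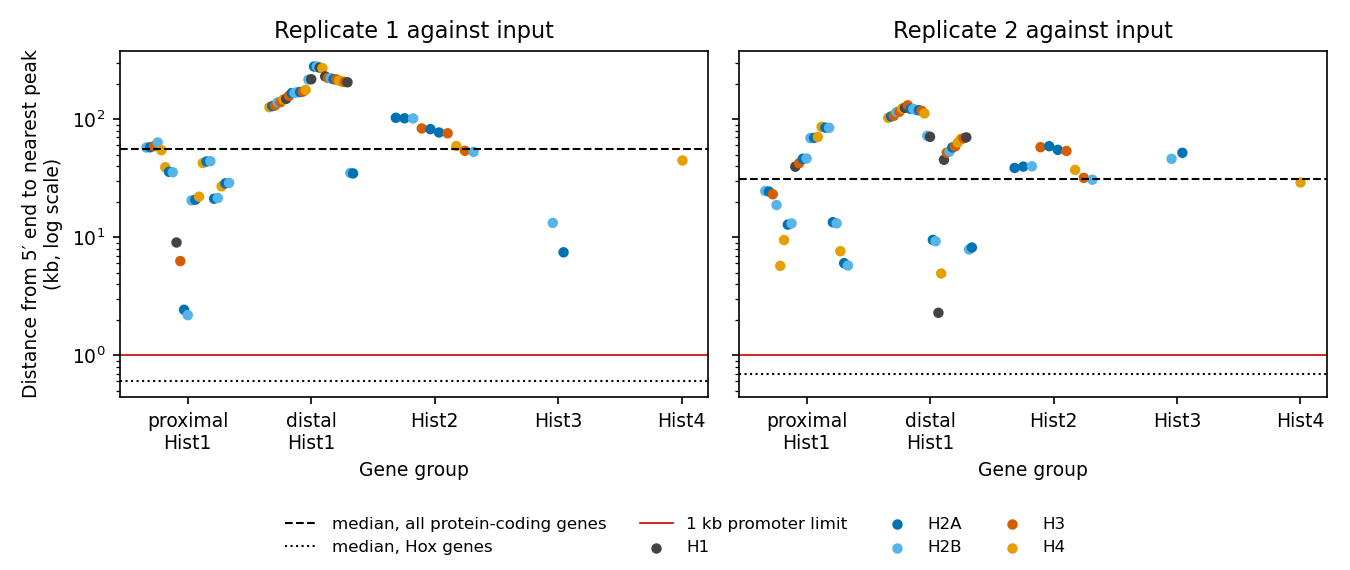
Distance from the 5′ end of each of the 67 histone genes to the nearest peak (kb, log scale), by gene group and coloured by histone type, in replicate 1 (left) and replicate 2 (right) against input. Broken and dotted lines are the medians of all protein-coding genes and of Hox genes, and no histone gene reaches the 1 kb line.

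The groups differed in these distances. The distal Hist1 genes were farthest from a peak in replicate 1 against input, with a median of 176.9 kb, and had medians of 85.1 kb against IgG and 70.9 kb in replicate 2. The proximal Hist1 genes had medians of 28.8 kb, 22.1 kb and 24.4 kb. The Hist2 genes had medians of 79.7 kb in both lists of replicate 1 and 39.8 kb in replicate 2. Hist3h2ba lay 13214 bp from a peak in replicate 1 and 46135 bp in replicate 2, and Hist3h2a lay 7449 bp and 51900 bp. Hist4h4 lay 44688 bp and 29501 bp from one. The order of the proximal Hist1, Hist2 and Hist3 genes was therefore not the same in both replicates. By histone type, medians in replicate 2 ranged from 43 kb for H2B to 63.5 kb for H4.

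Most histone genes are active in any dividing cell, but Hist1h1t, Hist1h2ba and Hist1h2aa are known as genes of the male germ line that form the testis histones H1t, TH2B and TH2A. These 3 genes were picked for that known role after the values had been seen. They had no promoter peak either. Hist1h2ba lay 34997 bp from a peak in replicate 1 against input, 48067 bp with IgG as control and 7872 bp in replicate 2. Hist1h2aa, its divergent partner, lay 34691 bp, 47761 bp and 8178 bp away. The peak nearest to both in replicate 2 (chr13:23926017-23926284) had a pileup of 6.41 and a fold enrichment of 2.52 and had no counterpart in the lists of replicate 1. Hist1h1t had the nearest peak of all distal Hist1 genes in replicate 2, at 2290 bp, and was 273339 bp and 144200 bp from one in the lists of replicate 1.

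Peak density was then compared over whole gene groups. The distal Hist1 group, the largest by genes, had 0 peaks in replicate 1 against input, 1 with IgG as control and 4 in replicate 2. The density was 0 per Mb for the first of these, for which the exact Poisson interval reached 9.14 and 3 peaks would give 7.43 per Mb, against 8.6 per Mb in the genome. It was 2.48 per Mb (0.0627 to 13.8) against IgG, with 9.4 in the genome, and 9.91 per Mb (2.7 to 25.4) in replicate 2, with 12.6 in the genome. Each interval covers the genome value. Of the 4 peaks in replicate 2, the one near Hist1h1t was the only one inside a histone locus, and 2 lay in Slc17a3 and Slc17a1, solute carrier genes in the same span. Slc17a3 also held the single peak called against IgG. The Hist2, Hist3 and Hist4 groups had 0 peaks in every list, over spans in which the genome density gives less than 1 peak.

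The proximal Hist1 group had 9 peaks in replicate 1 against input (27.4 per Mb, interval 12.6 to 52.1), 11 against IgG (33.5, 16.7 to 60) and 3 in replicate 2 (9.15, 1.89 to 26.7). The genome values of 8.6 and 9.4 per Mb lie below the intervals of replicate 1, and 12.6 lies inside that of replicate 2. All but 1 peak in each list lay outside the histone loci, the exceptions being the peaks near Hist1h2bp in replicate 1 and near Hist1h4j in replicate 2. Of the 9 peaks of replicate 1, 7 lay closest to Prss16, a gene for a serine protease known from the thymus, within a stretch of 18.6 kb (chr13:21995746-22014376). The intervals above treat peaks as independent, so they are too narrow for such a run of close peaks. Prss16 and the Slc17a genes were named after their values had been seen. The nearest of these peaks was 7 bp from the 5′ end of Prss16, while the nearest histone gene, Hist1h2ah, was at least 21192 bp from every one of them. Pileups ran from 3.12 to 4.37. In replicate 2 a single peak of pileup 6 lay closest to Prss16, at 8456 bp. None of the 9 peaks of replicate 1 in the 5 groups was overlapped by a replicate 2 peak, and the closest were 1770 bp apart, whereas 7 of the 9 were overlapped by a peak called against IgG. The 5 groups together, 792.8 kb, had 9, 12 and 7 peaks, where the genome density would give 6.81, 7.45 and 9.99.

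**Figure D3:**
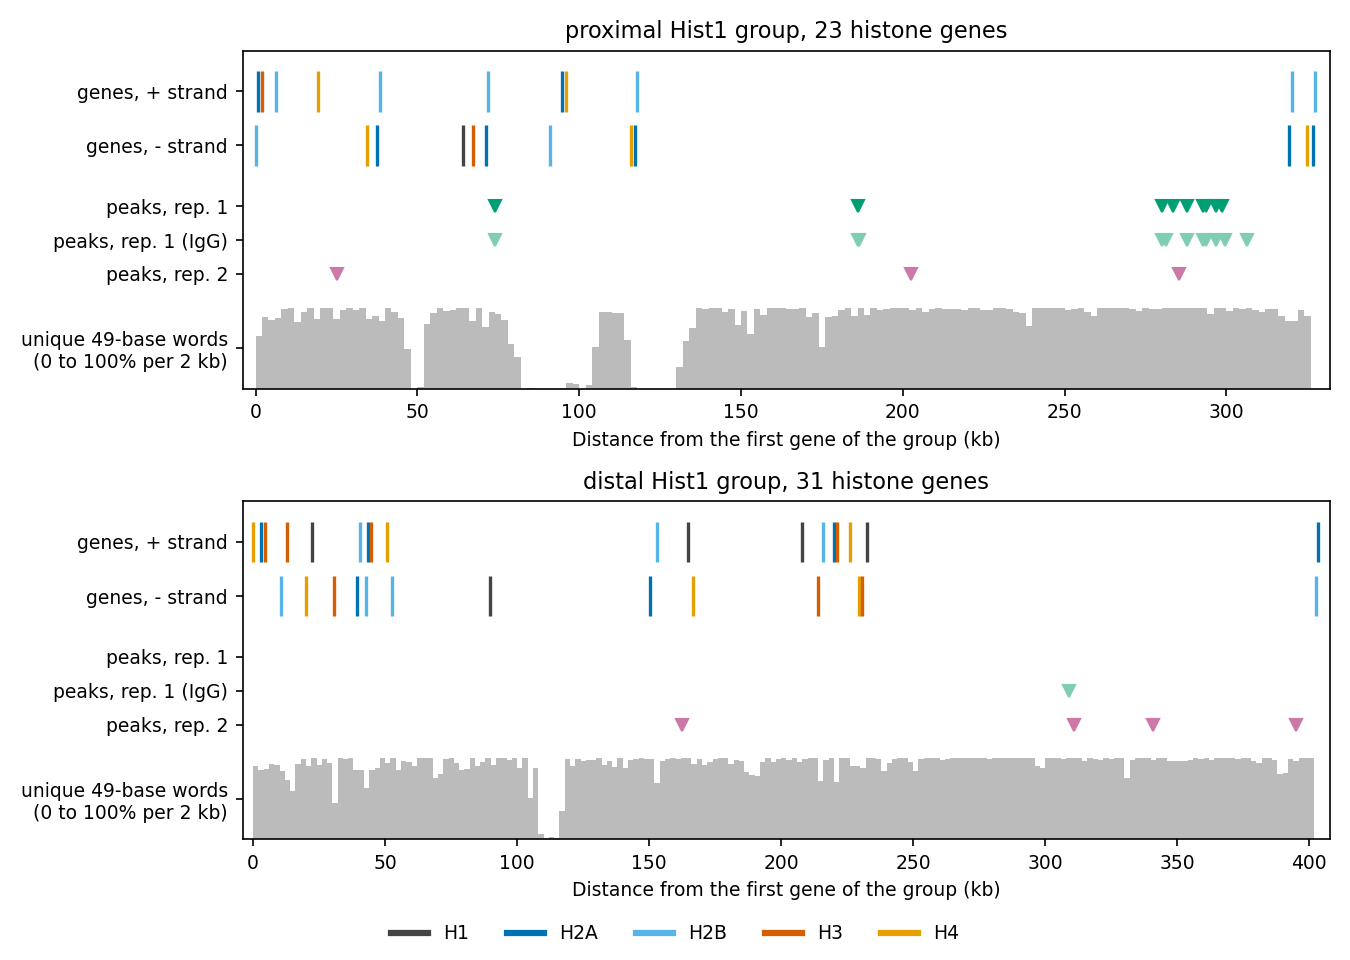
Both Hist1 groups on chromosome 13, with distance from the first gene of the group on the x axis (kb). Vertical bars mark the histone genes by strand and histone type, triangles mark the peaks of each list, and the grey track gives the percentage of unique 49-base words per 2 kb; the run of replicate 1 peaks near the right end of the proximal group lies at Prss16, in the gap between histone genes.

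The stretches without a peak that held the histone genes were also measured. In replicate 1 against input all 31 distal Hist1 genes lay in 1 peak-free stretch of 564.4 kb. Of 22778 such stretches in the genome, 736 (3.23%) were as long. Against IgG, 29 of the 31 genes lay in a stretch of 353.7 kb (6.87% as long). In replicate 2, 18 of them lay in a stretch of 264.9 kb (4.2% as long) and 11 in the next one of 148.6 kb (14.2%). The Hist2 genes lay in stretches of 349.5 kb, 325.8 kb and 119.2 kb, with 7.84%, 7.83% and 20.4% of stretches as long. These percentages count stretches, not bases or genes. A gene is more likely to fall in a long stretch than in a short one. The percentages therefore make such lengths look rarer than they are for a gene.

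The authors kept uniquely mapped reads, and near-identical histone copies limit what such reads can show. For each position, the word of tag length that starts there (49 bases in replicate 1, 74 in replicate 2) was counted over both strands of the assembly. In the 2 kb promoter windows of histone genes a median of 79.2% of positions were unique with 49 bases and 83.7% with 74 bases, against 100% over all genes. In the gene bodies the medians were 56.2% and 66.7%, and 28 genes (24 with 74 bases) were under 50%. H1 genes had a median of 100% in promoters and 98.8% in gene bodies with 49 bases. H2A genes had 70.6% and 34%, H2B genes 71.1% and 61.4%, H3 genes 78.1% and 46.3%, and H4 genes 90.1% and 64.7%.

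**Figure D4:**
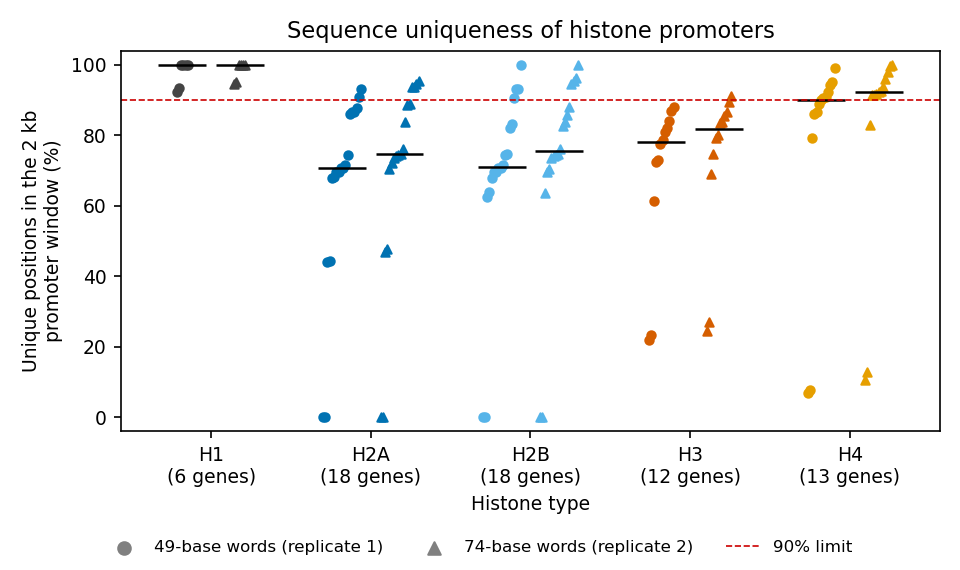
Percentage of positions in the 2 kb promoter window of each histone gene whose word of 49 bases (circles) or 74 bases (triangles) occurs once in the genome, by histone type. Black lines are medians and the broken line is the 90% limit; H1 promoters lie at or above 92.2%, and 4 H2A and H2B promoters lie at 0%.

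Where reads could not be placed, a count of 0 peaks carries no information. Hist1h2bq, Hist1h2ao, Hist1h2ap and Hist1h2br had 0% unique positions in promoter and gene body at both lengths. With Hist1h4m (6.7% in the promoter with 49 bases) and Hist1h4n (7.6%) they form a block of 6 genes over 30.9 kb (chr13:21806612-21837530) within the proximal Hist1 group. On chromosome 3, Hist2h3c2 and Hist2h3c1 had 21.8% and 23.2%, and Hist2h2aa2 and Hist2h2aa1 had 44.1% and 44.4%. All other promoters were above 50%. Restricting the count to promoters with at least 90% unique positions left 19 histone genes for replicate 1 and 25 for replicate 2, with 0 promoter peaks in each. The limit of 3 counts is then 15.8% and 12%, and the share over all genes with such promoters was 4.34% and 4.47%. With 49 bases these promoters belonged to 6 H1, 7 H4, 4 H2B and 2 H2A genes and to 0 H3 genes, so for H3 the count of 0 rests on promoters that reads cover in part.

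Histone genes outside the clusters and genes that serve histone supply were taken from lists of known genes. None of 14 genes for replacement and other non-clustered histones, among them H3f3a and H3f3b for H3.3, H2afz for H2A.Z and Cenpa for the centromeric H3, had a promoter peak in any list (0%, interval up to 21.5%, with 21.4% for 3 genes), and this interval covers the share over all genes. A peak lay in 2 of the 14 loci in replicate 1 against input (14.3%), in 4 in replicate 2 (28.6%) and in 1 in both replicates (7.14%), against 25%, 35.7% and 15.7% of all loci. The gene in both was H2afy, which encodes macroH2A1 and was named after its values had been seen. The promoters of the 14 genes were 88.4% to 100% unique with 49 bases, so near-identical copies limit them less. Of the 14, H2afj lies beside Hist4h4 and is outside the groups by its symbol only. The 18 supply genes included Npat, the coactivator of histone transcription, Slbp, which binds the stem-loop, Hinfp, a factor of H4 promoters, parts of the U7 and cleavage machinery (Lsm10, Lsm11, Zfp473, Cpsf2, Cpsf3), and histone chaperones (Asf1a, Asf1b, Chaf1a, Chaf1b, Nasp). Among these, 0 of 18 had a promoter peak in replicate 1 against input, 1 with IgG as control and 1 in replicate 2 (5.56%, interval 0.988% to 25.8%), against 3.87%, 4.52% and 4.16% of all genes. The gene was Sympk in both cases, which encodes symplekin, a scaffold of the histone 3′ end cleavage complex. Its nearest peak was 3184 bp from the 5′ end in replicate 1 against input, 661 bp with IgG as control and 817 bp in replicate 2.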

How the data were processed

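Per the labels and the study's methods, the authors aligned reads to GRCm38 (mm10) with BWA, kept uniquely mapped reads, sorted them with SAMtools and called broad peaks with MACS 2.1.1.20160309 per library at a p-value cutoff of 0.005. Partek is also named in the submitters' processing notes. The deposited pileup is a signal, the scaled mean number of overlapping tags. The deposited fold enrichment is a ratio over the control with a pseudocount of 1. Deposited p-values and q-values are given as −log10. After duplicate removal, 30369351 H3K27me3, 23688420 input and 24440452 IgG tags of 49 bases remained in replicate 1, and 49947919 H3K27me3 and 51681224 input tags of 74 bases in replicate 2. Depth and tag length differ between the replicates, so their effects cannot be told apart. The lists held 22757, 24881 and 33379 peaks, each deposited in further formats with equal peaks.

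Genes came from GENCODE M21 and sequence from GRCm38.p6. Each replicate's mapping to its list came from the file names and headers. Overlaps, distances, CpG, unique words and motifs were computed with Python 3.11.15, numpy 2.4.6, pandas 2.3.3, numba 0.67.0 and scipy 1.17.1, and the overlap and word counts were tested on simulated data. Unique words were counted over the assembled and unplaced sequence. Peaks were compared as called, with no test over samples, since each group had at most 2 libraries. By the naming rule, clustered histone genes with a promoter peak in any list or a locus peak in both replicates were to be named, and 0 met it. The rule also named genes of the other histone and supply lists with a promoter peak in any list, and only Sympk met it. Other genes named for a value were chosen after their values were seen. The members and gene lists were chosen with earlier results of these data known.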

Additional observations from a re-analysis of the deposited data

How the results depend on the processing

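The count of 0 histone promoters with a peak was 0 in 28 of 30 alternatives, which varied the window, the transcript starts, the overlap, the p-value, the fold enrichment, the uniqueness of the window, the control of replicate 1, the number of replicate 2 peaks and the replicates used. A window of 5 kb on each side raised it to 2 in replicate 1 and 2 in replicate 2. Besides this wider window, only the further transcript starts and the IgG control could have raised a count of 0. Smaller windows, peak midpoints, stricter peaks, merged windows and subsets of genes or peaks could only keep it at 0. Leaving out a replicate gives the count of the other one again. Histone loci with a peak, 2 in replicate 1 and 4 in replicate 2, became 0 and 0 without the flank, 5 and 11 with 10 kb on each side, 0 and 0 at a p-value of 0.001 or lower, and 0 and 0 at a fold enrichment of 3 or higher. All genes had 1.89% and 7.33% of loci with a peak at that p-value, and 4.35% and 1.24% at that fold enrichment. The shares over all genes without the flank and with 10 kb were not computed. The histone counts at those 2 settings therefore cannot be read as low or high. The 0 loci with a peak in both replicates became 2 to 4 when a replicate was left out, since the count is then that of the other one. The mean covered share, 0.0251%, was 0% without the flank, 0.0874% with 10 kb, 0% at the stricter p-value and 0% at the stricter fold enrichment. It was 0.0124% without replicate 2 and 0.0378% without replicate 1. The density in the distal Hist1 group in replicate 2, 9.91 per Mb, was 0 per Mb at the stricter p-value, 4.29 per Mb when genes up to 100 kb apart were joined and 4.95 per Mb with as many replicate 2 peaks as replicate 1 had. Its interval of 2.7 to 25.4 covers the last 2. The other alternatives, 43 of 60 in all, stayed within 1.5 times the count or within the error of the value. Among them are those that could only keep a count of 0. The covered share with a replicate left out is also among them, and could only stay within the error. Its error was the SD of 2 values, and each of 2 values lies within their SD of the mean. No paired analysis was possible because no group was tested against another and the counts come from no test. Single peaks rested on as few as 4 tags in replicate 1 and 6 in replicate 2, so the depth limits any statement on one peak.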
